A study of Mus musculus with 4 samples.

Results

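Acetylation of lysine 27 on histone H3 (H3K27ac) was measured in gastrocnemius muscle, and 11024 of the 82994 autosomal regions of the replicated peak list (13.3%) lay in introns of very long genes. A very long gene was a protein-coding gene spanning 200 kb or more from its first to its last annotated base, and a region was placed by its summit, the base with the most enrichment. The summit had to lie in an intron of such a gene, in no exon, and more than 2.5 kb from every annotated transcript start of any gene type. These 11024 are called member regions. The choice used positions alone and no level of acetylation. Of the 20807 protein-coding genes on the 19 autosomes, 953 (4.58%) were very long, with a median span of 327.1 kb.

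The tissue was the gastrocnemius, a calf muscle, of female adults, 2 months of age, of the hybrid mouse strain B6CASTF1/J. Chromatin bound by an antibody to H3K27ac was sequenced in 4 libraries. They came from 2 biological replicates, both pooled from 2 tissue samples and each sequenced as 2 technical replicates. The labels list no treatment. There was 1 group, so no conditions were compared and no test between groups could be made; the spread is given by the separate lists of replicates 1 and 2. Whole muscle also holds vessels, connective tissue and blood cells, and differences between cell types cannot be told apart in it. All 10 markers of skeletal muscle, all 6 of endothelium and all 5 of fibroblasts had a region within 1000 bp of a start, against 0 of 8 heart, 0 of 7 hepatocyte, 1 of 8 neuron and 2 of 6 leukocyte markers (background over all protein-coding genes, 62.1%).

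H3K27ac is laid down by the acetyltransferases CBP and p300 and marks active promoters and active enhancers, the stretches of DNA bound by transcription factors that raise transcription from a distance. Many enhancers lie in introns, where they can serve the gene that holds them or another gene nearby. In skeletal muscle the best known enhancer-binding factors are the MyoD family, which binds E-boxes, MEF2 and TEAD, and muscle promoters also hold a further element, the MEF3 site. Very long genes are a mixed class: they include giant muscle proteins and their anchors, transcription factors, signalling enzymes and many adhesion molecules of neurons.

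The sequences below are summit windows of strong member regions, chosen for holding a string of a muscle factor. The first of them, in Fgfr2, ranked 6 by signal value among members. The 5 members above it held none of these strings within 150 bp of the summit, so the windows are not typical of the strongest members. They are the 5 member regions of highest signal value with a string of a muscle factor within 150 bp of the summit, followed by the highest with a MEF3 string and the highest with a MEF2 string. The signal value is the enrichment that the authors deposited for each region, on a scale whose reference was not given in the sources used here. Each is the plus strand of GRCm38 (mm10), 300 bp centred on the summit, and lies in an intron. These bases, like all those searched here, come from the reference genome and not from the hybrid animals, whose alleles can differ. Capitals mark matches on either strand to the strings CAGCTG (E-box), CATTCC (TEAD), TCAGGTT (MEF3) and to CTA and TAG 4 bases apart (MEF2). Any 4 bases were allowed between CTA and TAG, so the MEF2 string is looser than the site of the factor. A match to it need not be a MEF2 site, here and in all shares given below. No match to any of these strings holds a match to another by its letters.
Fgfr2, chr7:130553057-130553356: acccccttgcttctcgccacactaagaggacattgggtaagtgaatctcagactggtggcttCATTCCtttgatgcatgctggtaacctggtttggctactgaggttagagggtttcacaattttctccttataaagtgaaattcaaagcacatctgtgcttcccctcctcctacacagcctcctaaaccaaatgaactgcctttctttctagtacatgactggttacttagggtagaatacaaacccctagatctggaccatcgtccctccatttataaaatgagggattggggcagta
Pde4b, chr4:102511332-102511631: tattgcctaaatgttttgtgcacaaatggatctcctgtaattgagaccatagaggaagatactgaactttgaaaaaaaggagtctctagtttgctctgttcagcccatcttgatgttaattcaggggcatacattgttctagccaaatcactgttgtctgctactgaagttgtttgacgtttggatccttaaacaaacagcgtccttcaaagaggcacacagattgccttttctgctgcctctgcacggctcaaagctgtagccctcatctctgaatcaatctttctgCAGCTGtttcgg
Tns1, chr1:74008107-74008406: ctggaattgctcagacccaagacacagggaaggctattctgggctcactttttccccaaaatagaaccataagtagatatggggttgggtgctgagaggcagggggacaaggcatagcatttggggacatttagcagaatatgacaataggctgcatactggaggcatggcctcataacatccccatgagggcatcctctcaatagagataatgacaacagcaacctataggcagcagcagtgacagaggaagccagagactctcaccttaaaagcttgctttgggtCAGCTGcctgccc
Pde4d, chr13:109915194-109915493: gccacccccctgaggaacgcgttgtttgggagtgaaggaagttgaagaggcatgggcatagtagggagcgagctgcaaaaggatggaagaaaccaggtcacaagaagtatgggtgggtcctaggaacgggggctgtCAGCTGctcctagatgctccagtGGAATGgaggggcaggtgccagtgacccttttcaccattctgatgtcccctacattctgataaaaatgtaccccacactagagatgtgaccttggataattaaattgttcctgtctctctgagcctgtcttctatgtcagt
Rere, chr4:150583722-150584021: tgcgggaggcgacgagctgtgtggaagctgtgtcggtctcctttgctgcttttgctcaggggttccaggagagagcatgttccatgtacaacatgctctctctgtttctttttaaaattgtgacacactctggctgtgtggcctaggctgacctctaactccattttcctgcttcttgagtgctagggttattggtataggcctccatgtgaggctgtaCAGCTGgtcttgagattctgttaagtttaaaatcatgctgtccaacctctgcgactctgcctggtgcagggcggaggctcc
Zmiz1, chr14:25497225-25497524: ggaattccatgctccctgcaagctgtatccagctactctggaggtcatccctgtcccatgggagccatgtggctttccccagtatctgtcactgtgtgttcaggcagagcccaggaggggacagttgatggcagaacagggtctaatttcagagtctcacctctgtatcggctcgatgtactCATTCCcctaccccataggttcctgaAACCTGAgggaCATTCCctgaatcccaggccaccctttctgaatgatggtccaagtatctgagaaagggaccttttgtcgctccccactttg
Lpp, chr16:24484168-24484467: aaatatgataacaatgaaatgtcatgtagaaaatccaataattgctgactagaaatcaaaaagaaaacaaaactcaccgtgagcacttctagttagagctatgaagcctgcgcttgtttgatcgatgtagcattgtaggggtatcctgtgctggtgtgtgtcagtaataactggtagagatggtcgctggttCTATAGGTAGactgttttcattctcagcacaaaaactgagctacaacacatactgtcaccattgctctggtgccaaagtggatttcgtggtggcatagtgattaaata

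Fgfr2 encodes a receptor for fibroblast growth factors, Pde4b and Pde4d encode phosphodiesterases that break down cyclic AMP, and Tns1 encodes tensin, which links integrins to actin. The annotated span of Fgfr2 encloses 29 complete other coding genes, so for its region the name stands for the interval and not for the receptor gene alone. Rere and Zmiz1 encode nuclear co-regulators, and Lpp encodes a LIM-domain protein of focal adhesions. The Fgfr2 region had signal values of 42.4 (replicated list), 35.0 (replicate 1) and 41.8 (replicate 2). The Pde4b region had 42.1, 34.7 and 41.8 in the same order, the Tns1 region 40.6, 36.0 and 37.1, and the Pde4d region 40.3, 29.6 and 41.6. The last 3, in Rere, Zmiz1 and Lpp, had 39.7, 36.3 and 34.4 in the replicated list. Each of the 7 was found in both replicates, at the lower value in replicate 1. Of the 7 windows, 4 hold an E-box, 3 a TEAD string, 1 a MEF3 string and 1 the MEF2 string; the choice of windows set at least 1 match in each.

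Member regions were less dense than regions in introns of shorter genes. Density here is the number of regions per 100 kb of eligible sequence, which is the intron more than 2.5 kb from any start and outside exons. Members reached 3.06 per 100 kb over 360.1 Mb, 2.36 in replicate 1 and 3.19 in replicate 2. Introns of shorter coding genes held 5.95 per 100 kb (4.89 and 6.22 in replicates 1 and 2), and intergenic sequence 1.57 (1.23 and 1.60). The 3 classes did not overlap between the lists of the replicates. Member regions covered 13.0 Mb, 3.62% of their eligible intron.

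Region by region, members resembled those of shorter genes. Their median width was 745 bp (quartiles 430 and 1440 bp), against 794 bp in introns of shorter genes, 707 bp between genes and 1356 bp within 2.5 kb of a start. The median signal value was 4.12 for members, 4.15 in shorter genes, 4.51 between genes and 11.6 near starts. Wide regions of 8 kb or more numbered 62 among the members, 0.562%, against 0.812% in shorter genes and 1.04% of all autosomal regions. The gap between members and regions near starts, in width and in signal value, was also present in each replicate: median widths were 644 against 1151 bp in replicate 1 and 712 against 1317 bp in replicate 2.

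Of the members, 6118 (55.5%) were shared with the lists of both replicates, where at least 50% of the shorter region had to overlap. Over all autosomal regions the share was 63.3%, in introns of shorter genes 56.8%, between genes 60.1% and within 2.5 kb of a start 78.8%. A further 2785 members were shared with replicate 2 only, 485 with replicate 1 only and 1636 with neither. Support followed the signal value. When all autosomal regions were put into 10 classes of about equal size by signal value, 8.49% of the members in the lowest class were shared with both replicates, 64.4% in class 5 and 100% in the highest 2. Members shared with both replicates had a median width of 1297 bp, against 317 bp for those shared with neither.

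The rule on span gives members more sequence far from starts, since 44.3% of their eligible intron lay over 50 kb from every start, against 8.45% in shorter genes. The median member lay 28.5 kb from the nearest start of any gene, against 13.0 kb for regions in introns of shorter genes. Members over 50 kb from every start made up 29.9%, against 5.96% in shorter genes, in both a smaller share than that of the sequence, and 1032 lay over 100 kb away. Density fell with distance: 4.23 members per 100 kb at 2.5 to 5 kb, 4.08 at 10 to 25 kb, 2.61 at 50 to 100 kb, 1.54 at 100 to 200 kb and 0.989 beyond 200 kb. Replicate 1 ran from 3.54 to 0.729 and replicate 2 from 4.49 to 1.05 over the same range. At equal distance the order of the classes stayed: at 50 to 100 kb shorter genes held 4.404 regions per 100 kb and intergenic sequence 0.920.

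**Figure D1:**
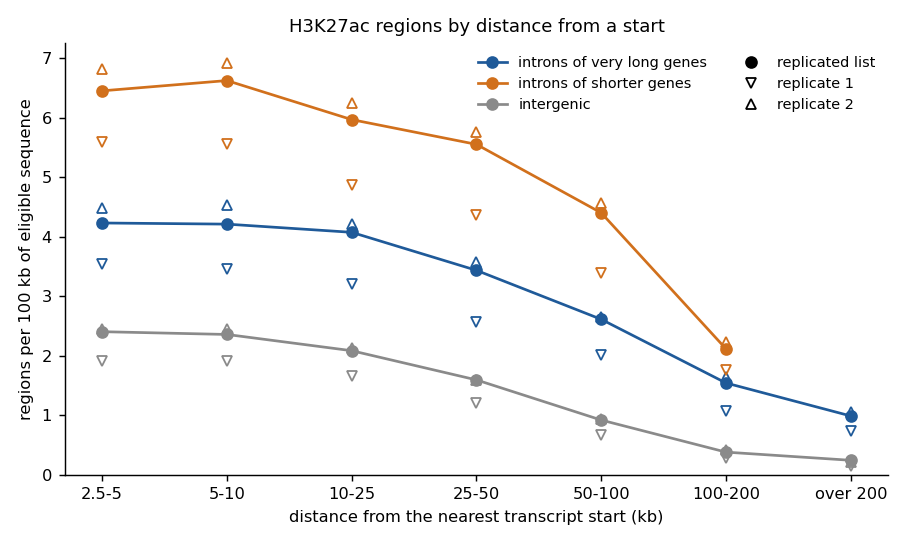
Regions per 100 kb of eligible sequence (vertical axis) by distance from the nearest transcript start in kb (horizontal axis), for introns of very long genes, introns of shorter genes and intergenic sequence; filled circles are the replicated list, open triangles the lists of replicates 1 and 2. Members fall from 4.23 at 2.5 to 5 kb to 0.989 beyond 200 kb and lie between the other classes in each list where all 3 have sequence.

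The member farthest from any start was in Dcc, which encodes the netrin receptor of growing axons, 580.9 kb away, with a signal value of 2.46 and no counterpart in replicate 1. Of the 5 farthest, 1 was strong in both replicates: the region chr4:66025111-66026042 in Astn2, an astrotactin of neurons, 328.1 kb from a start. Its signal value was 14.0, with 12.3 in replicate 1 and 13.6 in replicate 2. The nearest members sat 2.501 and 2.503 kb from a start, just past the limit, in Ncald and Lmntd1. The Ncald region had no counterpart in replicate 1, and the Lmntd1 region had signal values of 3.74, 3.08 and 4.03 in the replicated list and replicates 1 and 2.

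Members were unevenly spread over genes. Of the 953 very long genes, 701 (73.6%) held at least 1 member, 647 in replicate 1 and 702 in replicate 2, and 636 did so in both. The median was 4 members per gene with an upper quartile of 16, and 200 genes held 20 or more. The 95 genes with the most members held 44.3% of all members counted gene by gene. Replicate 2 had more members than replicate 1 in 574 genes, fewer in 65 and as many in 74; the remaining 240 genes had none in either replicate.

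Some gene models are not single genes. Gm20388 spans 4435 kb of chromosome 8 and encloses 71 complete other coding genes, and the annotated span of Fgfr2 (2961 kb) encloses 29. They held the most members, 374 and 207, and these numbers belong to the intervals and not to 1 gene. Without the gene models that enclose 5 or more complete coding genes, 10395 members in 695 genes remained, at 2.95 per 100 kb. In addition, 150 members lay in 2 very long genes at once, and 537 (4.87%) also lay inside a shorter coding gene. Which gene such a region serves was not tested.

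Leaving those models out, the most members lay in Rora, a nuclear receptor at chr9:68653786-69388246, with 107 (75 in replicate 1 and 118 in replicate 2). Zbtb20, a zinc-finger repressor, followed with 89 (75 and 103). Next came 5 gene models with 73 each: Pde4d (58 and 72), Ablim1, an actin-binding LIM protein (65 and 71), Lpp (48 and 73), Rad51b, a DNA repair gene (60 and 72), and 1 of the 2 gene models named Arhgap26, a GTPase-activating protein (60 and 70). Msi2, an RNA-binding protein, held 72 (68 and 85), Sgms1, a sphingomyelin synthase, 70 (51 and 61), and Tcf4, an E protein that pairs with MyoD, 66 (62 and 67). Replicate 2 held more than replicate 1 in all 10.

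Per length of intron, another set of genes led. Among the 934 genes with at least 100 kb of eligible intron, Nfib, a nuclear factor I protein at chr4:82290173-82705750, was densest with 30.6 members per 100 kb (24.1 in replicate 1 and 30.1 in replicate 2). Ablim1 followed with 29.6 (26.4 and 28.8), then Sh3pxd2a, the scaffold Tks5, with 29.1 (32.4 and 29.1), and Tead1, a TEAD factor at chr7:112679318-112906807, with 28.5 (27.02 and 29.5). Sgms1 had 28.5 (20.8 and 24.9) and Ppp1r12b, a myosin phosphatase subunit, 26.96 (20.2 and 22.7). The remaining 4 of the top 10 ran from 25.2 to 24.1: Rapgef2, an activator of Rap, Antxr1, a receptor for collagen and anthrax toxin, Ttc7b, and Foxn3, a forkhead repressor. Of these 10, 8 were among the 20 densest in replicate 1 and 9 in replicate 2; the median over all very long genes was 1.51. The order within the 10 did not hold across replicates, since Sh3pxd2a led Nfib in replicate 1.

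Regions in these genes came in runs. Members at most 12.5 kb apart formed 3127 groups, of which 1310 held 1 member, and the 619 groups of 5 or more held 59.5% of all members. The same share was not computed for other classes of regions. In dense genes, members join long groups at this limit by their density alone. The group with the most members was in Sgms1, with all 70 of its members at chr19:32132687-32382081. Msi2 had a group of 63 over a longer stretch, chr11:88437311-88715752, Ablim1 one of 54 and Tead1 one of 51. Pde4d was filled from one side only: its first member in the replicated list began 759.2 kb from the 5′ end of the gene, with 759.6 kb in replicate 2 and 779.4 kb in replicate 1. Its widest member, which was the widest of all at 22257 bp (chr13:109897608-109919864), lay near the 3′ end and reached within 1000 bp of an internal start of Pde4d; 6 members in all came that near to a start of their gene.

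The strongest members lay in various genes. The highest signal value, 62.5, belonged to chr13:63239066-63252071 in an intron of 2010111I01Rik, 13006 bp wide, with 52.3 in replicate 1 and 59.3 in replicate 2. Next came Celf2, a splicing regulator, with 52.0 at chr2:6870650-6873884 (41.4 and 51.5), and a region of Gm20388, one of the models that enclose other genes, with 50.7. Tns1 had 49.5 at chr1:73949669-73965235 (39.8 and 50.3) and Zmiz1 43.0 at chr14:25484554-25490402 (32.7 and 42.2). The Gm20388 region, 18021 bp wide, was split in the replicates: its counterpart in replicate 2 held the summit, with a signal value of 51.0, and that in replicate 1 was another stretch, with 20.8. Hdac4, a deacetylase that represses MEF2, held the region second in width, 21998 bp at chr1:92096547-92118544, whose counterpart measured 21981 bp in replicate 2 and, without the summit, 11137 bp in replicate 1.

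The state of the gene's own start went with the number of members. Of the very long genes, 624 (65.5%) had a region within 1000 bp of one of their starts, against 62.1% of all protein-coding genes. These held 4.72 members per 100 kb, with a median over genes of 3.67 (quartiles 1.06 and 8.40). The 329 genes with none held 0.569 per 100 kb, with a median of 0, and 136 of them (41.3%) held any member. The ratio of both densities was 8.31, with 9.21 in replicate 1 and 8.07 in replicate 2. Among genes with a region at a start, density also went with its signal value: in 3 classes of 208 genes it was 2.03, 5.15 and 7.36 per 100 kb from the lowest to the highest start signal. Any annotated start of a gene counted, internal ones too. Of the members, 6 themselves reached within 1000 bp of a start of their gene and so count on both sides. In Pde4d the start signal value, 40.3, was that of its widest member.

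Span went with both. Genes of 200 to 300 kb held 5.30 members per 100 kb and 74.5% had a region at a start. At 300 to 500 kb these were 3.40 and 63.5%, at 500 to 1000 kb 1.79 and 52.1%, and at 1000 kb or more 1.56 and 49.1%. Within the genes that had a region at a start, density still fell from 6.84 to 4.85, 3.24 and 2.78 over the same classes. In the genes with none it was 0.809, 1.07, 0.303 and 0.138, so it did not fall at each step. In each class of span the genes with a region at a start were the denser ones.

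**Figure D2:**
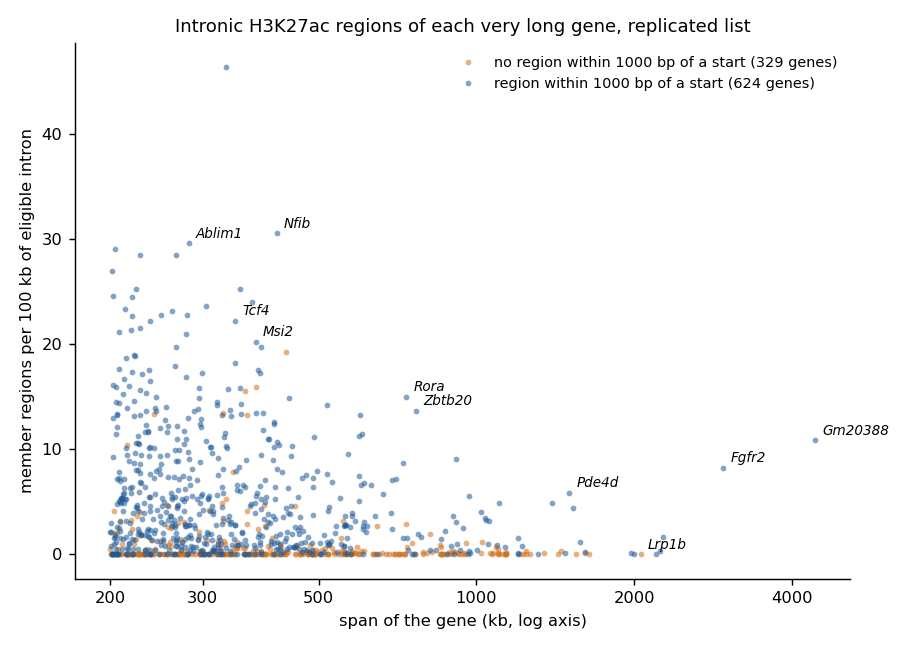
Member regions per 100 kb of eligible intron (vertical axis) against the span of the gene in kb (horizontal log axis) for the very long genes of the replicated list, 1 point per gene; blue points have a region within 1000 bp of a start (624 genes) and orange points have none (329). Orange points lie mostly at or near 0, and the highest unnamed point is Btbd3, with 9 members in 19.4 kb of eligible intron.

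Both kinds of exception were found. Among the genes with no region at a start, the Arhgap26 model with 73 members overlaps the other Arhgap26 model, which had a region at its start and 63 members (58 in replicate 1 and 63 in replicate 2). Gm42906 held 43 (30 and 41), 2010111I01Rik 37 (24 and 39) and Pdzd2, a protein with many PDZ domains, 34 (29 and 42). Tln2, the talin of muscle and brain, held 24 (17 and 24), and Cubn, the vitamin B12 receptor of kidney and gut, 21 (26 and 21). On the other side, 59 genes with a region at a start had no member. The longest of these were Macrod2, an ADP-ribose hydrolase, spanning 1998 kb with a start signal value of 22.6, and Lrrc4c, a synaptic adhesion protein, spanning 1314 kb with 8.88. Macrod2 held 1 member in the list of each replicate and Lrrc4c none.

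Lrp1b, a receptor of the LDL receptor family, Csmd1 and Pcdh15, a cadherin of the inner ear, were the longest with neither. They span 2058, 1643 and 1550 kb. Csmd1 and Pcdh15 had no member in any list of a replicate, and Lrp1b had 2 in replicate 1 only. At the lower limit of span the counts were mixed: Pcbp3 (200.0 kb) held 4 members, Plcxd3 (200.1 kb) 1 and Umad1 (200.2 kb) 5. Just below it, Atp9b (199.9 kb) held 3 regions, Morc1 (199.7 kb) none and Clec16a (199.5 kb) 26. These 6 genes are too few to show whether there is a step at the limit.

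Density varied less with position in the gene than with the state of the start. The first intron, counted in the transcript with the most upstream start, held 26.8% of members (27.3% in replicate 1 and 27.1% in replicate 2) in 22.0% of the eligible sequence. Density was 3.72 per 100 kb in intron 1, 3.63 in intron 2, 2.903 in intron 3 and 2.62 in later introns. Genes were also cut into 10 equal parts from the 5′ end. Those with a region at a start held 5.70 members per 100 kb in part 1, 4.04 in part 5 and 4.26 in part 10. Genes without one went the other way, from 0.256 in part 1 (33 members) to 0.584 in part 5 and 1.03 in part 10 (142 members). These last counts are small, and the part of neighbouring genes past the 3′ end was not tested.

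Genes were then grouped by role, in 10 lists chosen with earlier results of these data known. The median density of a list is given beside that of all very long genes, 1.51 per 100 kb (0.968 in replicate 1 and 1.61 in replicate 2). Of the 10 lists, 9 had a higher median in the replicated list, in each replicate and under each alternative setting tried. The highest was the sarcomere, Z-disc and cytoskeletal list and the lowest the neuronal list. No list was tested, and lists differ in span and in the share of genes with a region at a start. Over the very long genes with a region at a start alone, the median was 3.67 (2.64 in replicate 1 and 3.81 in replicate 2). In the replicated list, the lists of the dystrophin complex, leukocytes, common fragile sites and neurons lay below 3.67 and the others above it. Some lists also include genes with no region at a start.

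The sarcomere, Z-disc and cytoskeletal list holds proteins of the contractile lattice and also other actin-binding and membrane repair proteins. Its median is therefore not that of sarcomere genes alone. It had 17 very long genes. All 17 had a region at a start and 16 held a member, against 73.6% of all very long genes, with a median of 10.1 members per 100 kb (8.71 in replicate 1 and 9.79 in replicate 2). Ablim1 led. Ttn, which encodes the giant spring titin, had 16.9 per 100 kb (26 members, 19 and 37 in the replicates). Palld, palladin of actin bundles, had 11.9, Dysf, the membrane repair protein dysferlin, 9.31, and Neb, the thin-filament ruler nebulin, 7.30 (4.86 and 6.69). The list's gene with no member was Nebl, whose product nebulette is a heart relative of nebulin; its start had a signal value of 4.12 and no region in replicate 2.

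The dystrophin complex and its membrane partners were lower, with a median of 3.17 over 10 genes (1.68 and 2.46 in the replicates). With a span of 300 kb or more its median was 0.899, against 0.856 over all genes of that span. Dtna, dystrobrevin alpha, had 7.95 per 100 kb (18 members, 13 and 20), Utrn, utrophin, 7.23 (32, 22 and 33), and Sntb1, a syntrophin, 7.21 (19, 16 and 28). Lama2, the laminin chain of the muscle basement membrane, had 3.67 (2.33 and 2.999). Sgcd, delta-sarcoglycan, spans 1093 kb and had 0.899, while Sgcz, zeta-sarcoglycan, and the growth factor gene Nrg1 had no region at a start and no member in any list.

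Transcriptional regulators of muscle formed the second list, with 27 genes, all with a region at a start, 25 with a member and a median of 9.19 per 100 kb (6.41 and 8.93). Nfib, Tead1 and Tcf4 led, the last with 22.3. Hdac4 had 19.8 (43 members, 43 and 47), and Nfia, a relative of Nfib, 18.2 (60, 51 and 69). Sox6, a repressor of slow-fibre genes, had 9.53 (51, 35 and 48), Eya4, a transcriptional coactivator, 8.12 (19, 15 and 22), and Mitf, better known from pigment cells, 10.1 (19, 16 and 16). Rbfox1, the splicing factor, spans 1526 kb and held 46 members (43 and 46). Esrrg, a nuclear receptor of oxidative fibres, had 2.45 (1.40 and 2.28), and Meis2 had none in any list.

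Calcium handling and cyclic nucleotide signalling had 22 genes, all with a member, and a median of 6.34 (4.92 and 6.12). Itpr1, a calcium release channel, had 13.7 per 100 kb (42 members, 34 and 36), Pde7b, a cyclic AMP phosphodiesterase, 13.3 (40, 31 and 34), and Prkce, a protein kinase C, 11.2 (52, 31 and 54). Trdn, triadin of the calcium release unit, had 2.63, and Ryr3, a minor ryanodine receptor of muscle, held 1 member in each list. In the list on metabolism and insulin signalling, with 11 genes and a median of 4.01, the replicates were far apart, at 2.01 and 5.92. Fto led it with 14.3 (12.3 and 13.0), followed by Ghr, the growth hormone receptor, with 9.90 (7.92 and 13.9) and Igf1r, the IGF-1 receptor, with 9.74 (5.24 and 11.2).

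**Figure D3:**
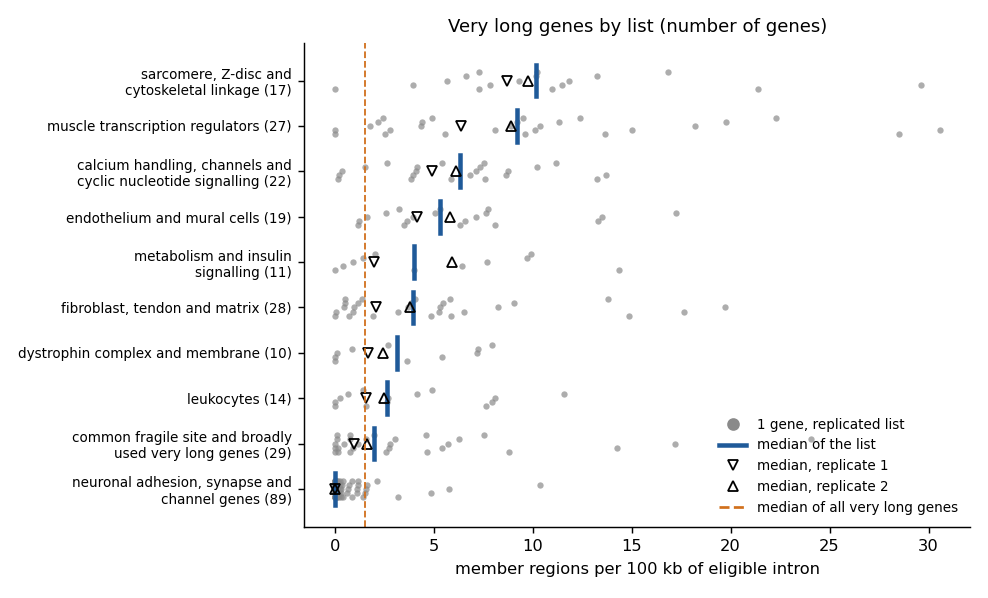
Member regions per 100 kb of eligible intron (horizontal axis) for the genes of 10 lists (vertical axis, number of very long genes in brackets); grey points are genes in the replicated list, blue bars list medians, open triangles the medians in replicates 1 and 2, and the dashed line the median of all very long genes, 1.51. The sarcomere list has the highest median, 10.1, and the neuronal list the lowest, 0.

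Lists of the other cells of whole muscle also lay above the median of all very long genes. Genes with a region at a start had a median of 3.67 (2.64 and 3.81 in replicates 1 and 2). The endothelial list was above these values and the leukocyte list below them. The fibroblast list was above in the replicated list, below in replicate 1 and level in replicate 2. Endothelium and mural cells had 19 genes, all with a member and all with a region at a start, and a median of 5.30 (4.18 and 5.85). Dlc1, a GTPase-activating protein, led with 17.3 per 100 kb (63 members, 54 and 67), followed by Ebf1, a factor of pericytes and B cells, with 13.5. Erg, a factor that defines endothelium, had 7.74 (16, 16 and 13). The fibroblast, tendon and matrix list had a median of 3.96 (2.12 and 3.81) over 28 genes, led by Rarb, a retinoic acid receptor, with 19.7 (15.3 and 24.8) and Fbn1, fibrillin, with 17.7 (10.9 and 15.6). Leukocytes had 2.65 (1.59 and 2.497; 5.92 with a span of 300 kb or more) over 14 genes, of which 6 had a region at a start. How many members come from these cells and how many from fibres was not tested.

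The neuronal list of adhesion, synapse and channel genes held the most genes, 89, and its median was 0 in the replicated list and in both replicates (0.0467 in the pooled list). A region at a start was found in 23 of them (25.8%) and a member in 42 (47.2%), against 73.6% of all very long genes. The exception was Syn3, a synapsin, with 43 members (46 and 48 in the replicates) and 10.4 per 100 kb, whose span encloses Timp3, a matrix metalloprotease inhibitor. Sorcs2, a sorting receptor, had 5.80 (21 members, 14 and 21), and Slit3, a guidance ligand also made outside the nervous system, 3.21 (18, 9 and 17). The list's median span was 751.8 kb, against 327.1 kb over all very long genes. Large genes of common fragile sites and of broad use, 29 of them with a median span of 558.5 kb, had a median of 1.97. It was 0.999 in replicate 1, near the 0.968 of all very long genes there, and 1.65 in replicate 2. Wwox had 3.05 (1.81 and 3.84) and Fhit 3 members, with none in replicate 1.

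In base composition, members stood between starts and region-free intron. In windows of 500 bp centred on the summit, the median GC content was 46.4% for members, 47.4% for regions in shorter genes, 56.6% near starts and 41.0% in 33959 windows of very long intron without a region in any list. Members held few CpG-rich windows: 0.853% had an observed to expected CpG ratio over 0.6, against 48.3% near starts. Repeats made up 13.3% of member windows and 28.6% of region-free intron. Members of genes with and without a region at a start did not differ in median GC, 46.4% in both.

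Of the 4 muscle strings, the E-box CAGCTG differed most from region-free intron. It was found in 30.6% of member windows, as in 30.6% of all autosomal regions, and in 16.6% of region-free intron. Since GC content differed, the share was also read within classes of GC, where E-boxes were more frequent in members in each of the 5 classes: 19.2% against 14.7% at 38 to 42% GC, 26.3% against 19.4% at 42 to 46%, and 34.0% against 24.9% at 46 to 50%. The MEF2 string was found in 9.28% of members and 8.85% of region-free windows. Within the GC classes it was also more frequent in members in each of the 5, at 11.2% against 9.37%, 11.2% against 8.70% and 7.87% against 6.85% in the same 3. MEF3 (7.78% against 7.85%) and TEAD (26.97% against 25.6%) were close to region-free intron. Any of the 4 strings was found in 57.6% of members and 48.2% of region-free windows, and in 55.8% of all autosomal regions, 58.1% of those in shorter genes and 58.7% between genes, so the members' share lay near that of regions elsewhere.

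Strong members held the MEF2 string more often than weak ones. In the 10% of members with the highest signal value, 37.2% of windows held an E-box and 12.8% a MEF2 string, against 28.1% and 7.62% in the lowest 10%. The strong windows were also richer in GC, with a median of 48.4% against 45.4%. Within each of the 5 classes of GC the MEF2 string was more frequent in the strong windows, for example 17.5% against 10.7% at 42 to 46% GC and 13.5% against 5.50% at 46 to 50%. The E-box gap was narrower there, 29.2% against 24.5% and 38.01% against 33.0%, and below 38% GC, with 18 strong windows, it was turned round. MEF3 was found in 8.26% of strong and 7.17% of weak windows, and TEAD in 26.0% and 29.7%. Among the other strings searched on both strands, GGGCGGG (SP and KLF factors) was found in 3.94% of members and 34.4% of regions near starts, and CCGGAAG (ETS factors) in 2.49% and 12.9%. TGANTCA (AP-1) was found in 17.2% of members, 15.2% of region-free windows and 9.82% of regions near starts. In regions of shorter genes the shares of these 3 strings were 4.25%, 2.53% and 16.4%, within 1 percentage point of those in members.

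E-boxes were spread broadly around the summit. Over all members they were most frequent in the first 50 bp to each side, with 76.4 per 1000 windows, still at 71.5 at 250 to 300 bp, and fell to 52.5 at 450 to 500 bp, against 36.8 to 40.0 in region-free intron. In the strongest 10% they were most frequent at 200 to 250 bp, with 122.5 per 1000 windows against 83.5 at the summit. Replicate 2 gave 120.2 against 87.1 with its own summits and its own strongest 10%, and replicate 1 gave 101.1 against 94.0, with its highest value, 109.3, at 250 to 300 bp. The MEF2 string showed a like course in the strongest 10%, with 38.1 per 1000 at 150 to 200 bp (42 matches) against 19.1 at the summit (21 matches). In replicates 1 and 2 these were 30.6 against 17.6 and 40.9 against 19.2. MEF3 in the strongest 10% also rose away from the summit, with 30.9 at 200 to 250 bp (34 matches) against 9.07 (10 matches). Replicate 2 gave 34.0 against 11.3 at the same distances. Replicate 1 gave 21.2 against 10.6, with its highest value, 31.7, at 350 to 400 bp. TEAD in the strongest 10% of the replicated list differed, with its lowest value, 49.0, at 200 to 250 bp and its highest, 85.3, at 50 to 100 bp. Replicate 2 had its lowest and highest values at the same distances, 53.1 and 78.4. Replicate 1 did not show this course, with its lowest value, 54.1, at 0 to 50 bp and its highest, 75.2, at 400 to 450 bp.

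**Figure D4:**
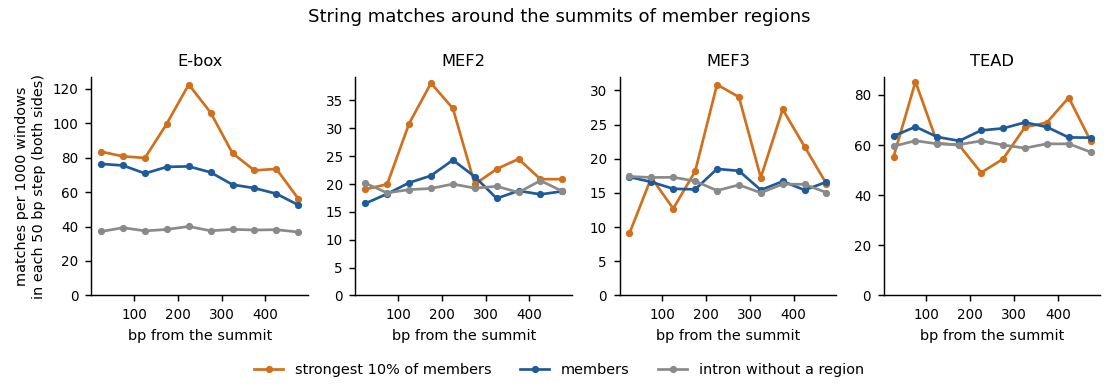
Matches per 1000 windows in each 50 bp step to both sides (vertical axes, 1 scale per panel) by distance from the summit in bp (horizontal axes) for 4 strings, in the strongest 10% of members (orange, 1102 windows), all members (blue, 11024) and very long intron without a region (grey, 33959). In the strongest 10% the E-box is highest at 200 to 250 bp with 122.5 and MEF2 at 150 to 200 bp with 38.1. MEF3 in the strongest 10% is highest at 200 to 250 bp with 30.9, while the grey lines are level.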

How the data were processed

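The authors deposited 4 peak lists on mm10, per the deposited descriptions: 1 from each biological replicate, 1 from the pooled replicates and 1, the replicated list, from both. Each region carries, as deposited by the authors, a signal value, a score, −log10 of a p-value and of a q-value, and the offset of its summit. The aligner, the caller with its settings and the reference of the signal value were not given in the sources used here. Since the lists hold no counts, depth is unknown and intervals that need it are left out.

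Members and gene lists were chosen with earlier results of these data known. Starts, exons and gene spans came from the GENCODE mouse annotation M21 (basic set), and bases from the GRCm38 sequence. Placement, densities, sharing (at least 50% of the shorter region) and string searches were computed with Python 3.11.15 and NumPy 2.4.6, and all 22 checks on simulated data gave the known answer. Members at most 12.5 kb apart formed a group. Region-free windows lay on a regular grid and met no region of any list. Named genes were those with the most members, the densest with at least 100 kb of eligible intron, the longest without a member, those next to the span limit and the leading genes of each list; the other genes of the lists, the genes without a region at a start and the MEF2 and MEF3 windows were chosen after their values were seen. Technical replicates share an alignment and were not separated. No statistical test was made, since there was 1 group.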

Additional observations from a re-analysis of the deposited data

How the results depend on the processing

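No paired analysis was possible because there was 1 group of samples. Alternatives were another list, a −log10 q of at least 5, other limits of span, start distance, overlap and window, the centre of the region, and, chosen after seeing the data, the removal of gene models holding 5 or more other genes. Of the values of the report's main results under these, 81 stayed within the limit set (1.5 times for a count, otherwise 1 SD between the lists of the replicates) and 23 moved; no direction is tested here. With a span of 300 kb or more there were 6490 members in 386 genes, 2.36 per 100 kb, 26.2% in intron 1, and a ratio by start state of 7.31. With 150 kb or more, intron 1 held 27.9%, with a distance over 5 kb 26.2%, and without the composite models 24.7%. The median width was 679 bp in the pooled list and 917 bp at a −log10 q of at least 5, and the median signal value 3.92 and 4.64. With 100 bp to each side, 29.0% of windows held any of the 4 strings and the median GC content was 48.0%.

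Leaving out 1 replicate gave 2.36 to 3.19 members per 100 kb, 54.3% to 90.1% shared with the list left out, a median width of 644 to 712 bp, a median signal value of 4.50 to 4.58, 27.1% to 27.3% in intron 1, a ratio of 8.07 to 9.21 and 57.05% to 57.7% of windows with a string. The share of members shared with both lists fell from 55.5% to 37.9% where both regions had to overlap by 50%. Of 258 values of single lists, strings and states under the alternatives, 91 moved by more than 1 SD between replicates, an SD that rests on 2 lists. The neuronal list was lowest in all 9 settings and the sarcomere list highest in 8.

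Each value rests on 2 replicates of unknown depth. The list of replicate 1 is shorter, and a lower count there cannot be told apart from less depth or weaker enrichment. Gene models set which intron counts, and a region need not act on the gene that holds it. String matches are letters in a window and show no binding.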
